A study of Bos taurus with 16 samples.

Results

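The 5 genes described here encode chains of the major histocompatibility complex (MHC) proteins that present antigen to T cells, out of 27607 genes in the deposited tables. They were chosen by identifier: ENSBTAG00000012330 (B2M), ENSBTAG00000010645 (BOLA-DRA), ENSBTAG00000013919 (BOLA-DRB3), ENSBTAG00000009656 (BOLA-DQA) and ENSBTAG00000021077 (BOLA-DQB). The deposited files hold identifiers only, so the symbols are those given with this choice and were not checked against an annotation. All 5 were among the 13265 genes that passed the filter on low counts.

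The study compared whole blood of crossbred beef steers with high and low residual feed intake (RFI), the feed an animal eats beyond or below what its weight and gain predict. High-RFI steers were the least and low-RFI steers the most efficient, and all were fed the same high-forage ration. Each group held 8 steers, numbered 1 to 8 (low-RFI) and 9 to 16 (high-RFI) as in the labels, with 1 library per steer made from blood of several days combined. Ribosomal and globin RNA were depleted when the libraries were made, which held 4.80 to 12.2 M counts on genes. The list of reads per steer that came with the study fits these counts only with its group names exchanged. High and low follow the labels here, and every direction would turn round if the labels were the ones exchanged. Column titles begin with HFE for steers labelled high-RFI and with LFE for those labelled low-RFI. Whether FE stands for feed efficiency, which would be the reverse order, was not resolved. Breed, pen and genotype per steer were not given, and white cell markers could not be looked up because identifiers and symbols were not paired.

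MHC class I proteins sit on nearly all nucleated cells and show peptides made inside the cell to CD8 T cells, and B2M is the light chain that all of them share. MHC class II proteins are pairs of an alpha and a beta chain on B cells, monocytes and dendritic cells, and show peptides taken up from outside to CD4 T cells. In cattle the DR pair is made of BOLA-DRA, which hardly varies between animals, and BOLA-DRB3, which is among the most variable genes of the genome. The DQ pair is made of BOLA-DQA and BOLA-DQB, which vary in sequence and, between haplotypes, in the number of copies. B2M and BOLA-DRA are therefore called the stable loci below and BOLA-DRB3, BOLA-DQA and BOLA-DQB the polymorphic loci.

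A neighbouring copy matters for counts, since reads that fit more than 1 copy may be split or lost. In the RefSeq gene order of assembly ARS-UCD2.0, which is later than the ARS-UCD1.2 used by the authors, the class II stretch runs BOLA-DQA2, BOLA-DQB, BOLA-DQA5, BOLA-DQB1, LOC100848815 (also listed as BoLA-DQA1), BOLA-DRB3, the pseudogenes LOC132343585 and LA-DRB, BOLA-DRB2 and BOLA-DRA. The names BoLA-DQA and BoLA-DQB are each listed there as synonyms of genes other than, or in addition to, the ones of that symbol. Which of these copies the 2 DQ identifiers stand for was not resolved, and the counts of DRB3, DQA and DQB are uncertain to that extent. No other copy of BOLA-DRA is listed within this stretch, but the order was read only as far as BOLA-DRA itself. B2M lies outside the stretch, and copies of it were not looked up.

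Per length, the members ranged from among the most abundant RNAs of blood to barely detected. Levels are given in FPKM, here the normalized count divided by gene length, which allows genes to be compared. B2M had a mean of 1432 FPKM ± 185 (SD, n = 16) and was the 34th most abundant of 21016 genes with a count. BOLA-DRA followed with 602 ± 91.2 FPKM at rank 92 and BOLA-DRB3 with 348 ± 99.0 FPKM at rank 180. The DQ identifiers averaged far below the DR chains. Other DQ copies were not looked up, so the total DQ level of blood is not known. BOLA-DQA reached a mean of 41.0 ± 32.5 FPKM (rank 1801) and BOLA-DQB 15.99 ± 37.6 FPKM (rank 4759), the latter with a median of only 2.81 FPKM. In bulk blood, fewer cells of a type and less RNA per cell cannot be told apart, for these levels and for every difference below.

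The order of the first 4 genes was the same in each steer. B2M was above BOLA-DRA in 16 of 16 steers, BOLA-DRA above BOLA-DRB3 in 16 of 16 and BOLA-DRB3 above BOLA-DQA in 16 of 16. The mean log2 ratios of FPKM + 0.1 were 1.25, 0.83 and 4.86. BOLA-DQA was 0 FPKM in steers 1 and 8, where the added 0.1 sets the ratio. Each of the 3 ratios reached the smallest p that an exact two-sided sign-exchange test over 16 steers can give, 3.05e-05 (adjusted p = 4.07e-05). BOLA-DQA exceeded BOLA-DQB in 11 of 16 steers, and these neighbours did not differ beyond their spread (mean log2 ratio of FPKM + 0.1 1.75 ± 3.99 (SD), exact p = 0.101).

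**Figure D1:**
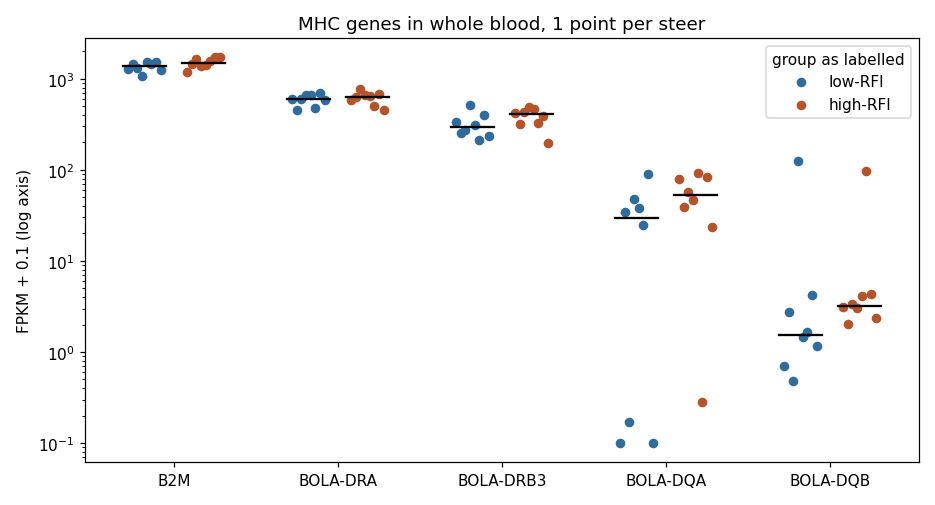
Level of each MHC gene in FPKM + 0.1 on a log axis, 1 point per steer, coloured by labelled group. B2M, BOLA-DRA and BOLA-DRB3 form narrow bands at means of 1432, 602 and 348 FPKM, while 4 steers drop to the bottom of the BOLA-DQA column and 2 steers stand far above the rest in the BOLA-DQB column.

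The stable class I light chain was the most even of the 5. B2M in low-RFI steers 1 to 8 stood at 1288, 1450, 1304, 1077, 1510, 1459, 1505 and 1236 FPKM, and in high-RFI steers 9 to 16 at 1179, 1442, 1664, 1387, 1405, 1564, 1712 and 1722 FPKM. The highest value was 1.60 times the lowest. The 4 highest steers were high-RFI, yet low-RFI steer 4 and high-RFI steer 9 held the lowest values, so the groups overlapped.

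BOLA-DRA, the alpha chain of DR, was nearly as even. Its low-RFI values were 599, 448, 593, 656, 660, 475, 693 and 583 FPKM and its high-RFI values 588, 626, 762, 670, 644, 499, 677 and 457 FPKM. The highest was 1.70 times the lowest. Steers 2 and 6 of the low-RFI group and steers 14 and 16 of the high-RFI group lay below a gap between 9768 and 11413 normalized counts, and the other 12 steers above it.

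BOLA-DRB3, the variable beta chain that pairs with BOLA-DRA, spread over a wider range in the same steers. It stood at 339, 255, 274, 512, 314, 211, 403 and 236 FPKM in low-RFI steers and at 421, 320, 434, 483, 464, 324, 389 and 198 FPKM in high-RFI steers. The highest steer, low-RFI 4, had 2.59 times the lowest, high-RFI 16, and the extremes of the whole set thus came from opposite groups.

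BOLA-DQA, the DQ alpha chain, was either present or all but absent. In 12 steers it stood at 301 to 1158 normalized counts with a median of 597, and in the other 4 it had 0 to 2 raw counts. The 4 steers were low-RFI 1, 3 and 8 with 0, 1 and 0 counts and high-RFI 14 with 2 counts. A count of 0 allows up to 3 counts, which is 2.16 normalized counts in steer 1 and 2.90 in steer 8. Against this limit of 3 counts per library, steer 16, the lowest of the 12, was at least 139-fold higher than steer 1 and at least 104-fold higher than steer 8. The exact Poisson 95% interval, which covers counting error only, was 0.0226 to 4.97 normalized counts in steer 3 and 0.278 to 8.30 in steer 14. These 4 libraries held 10.6, 8.99, 8.40 and 7.08 M counts, the last being the shallowest high-RFI library, and only steer 4, which had BOLA-DQA, held fewer (4.80 M). Among the 12 steers, BOLA-DQA in low-RFI steers 2, 4, 5, 6 and 7 was 34.3, 47.5, 38.0, 24.9 and 90.8 FPKM, and in high-RFI steers 9 to 13, 15 and 16 it was 79.3, 38.5, 57.6, 46.8, 91.5, 82.2 and 23.7 FPKM. No value lay between the 2 sets of steers, and both groups had steers in each set, 5 and 3 in low-RFI and 7 and 1 in high-RFI.

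BOLA-DQB, the DQ beta chain, showed the opposite shape: low in most steers and high in a pair. It had 1493 normalized counts in low-RFI steer 4 and 1140 in high-RFI steer 14, against 4.46 to 49.8 (median 29.3) in the other 14. The lower of this pair was 22.9 times the highest of the others. In FPKM the low-RFI values were 0.609, 2.66, 0.376, 126, 1.35, 1.56, 4.08 and 1.06, and the high-RFI values 3.04, 1.94, 3.24, 2.97, 4.03, 96.3, 4.21 and 2.29. The 3 lowest BOLA-DQB values were those of low-RFI steers 3, 1 and 8, the same 3 that lacked BOLA-DQA. Raw counts there were 5, 10 and 13, so these levels are known to within a few reads only.

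Reading the DQ genes side by side, 11 steers had both BOLA-DQA and the low BOLA-DQB level. In them the BOLA-DQA level was 10.4 to 28.1 times that of BOLA-DQB per length, with a median of 19.5. Steer 4 had both genes at a high level, with 47.5 FPKM of BOLA-DQA and 126 FPKM of BOLA-DQB (ratio 0.377). Steer 14 had 96.3 FPKM of BOLA-DQB beside 0.181 FPKM of BOLA-DQA (ratio 0.00188). Steers 1, 3 and 8 were low in both. Per length, BOLA-DQB stood at 0.192 of BOLA-DRA in steer 4 and 0.193 in steer 14, and at no more than 0.00626 in the rest.

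**Figure D2:**
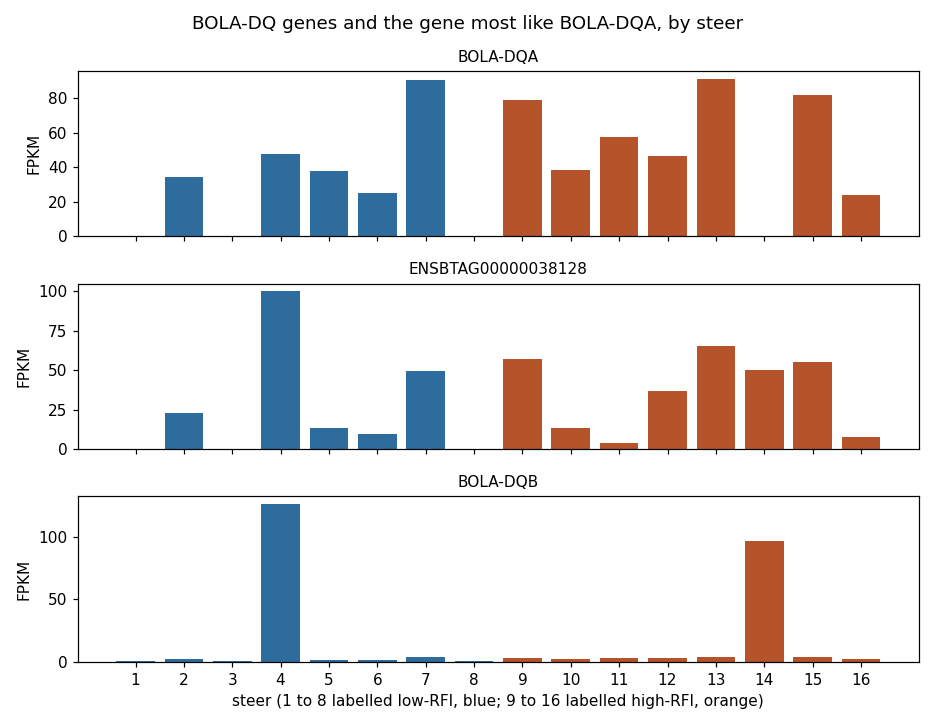
FPKM of BOLA-DQA, BOLA-DQB and ENSBTAG00000038128, the gene most like BOLA-DQA over the steers, as 1 bar per steer, low-RFI steers 1 to 8 in blue and high-RFI steers 9 to 16 in orange. BOLA-DQA is missing in steers 1, 3, 8 and 14, BOLA-DQB stands out in steers 4 (126 FPKM) and 14 (96.3 FPKM), and ENSBTAG00000038128 is missing in steers 1, 3 and 8 but not 14.

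No other gene in these tables split the same steers as either DQ gene at the folds searched. Only 1 gene of 27607, BOLA-DQA itself, had every one of the 12 steers above 10 times every one of the other 4. Only 1 gene, BOLA-DQB itself, had steers 4 and 14 above 5 times all others. Another search, for genes low in steers 1, 3 and 8 with all other 13 steers over 10 times higher, found only ENSBTAG00000038128. These 3 searches were set after the values had been seen and are descriptions. Each asked for an exact set of steers, so how common on/off patterns are among all genes was not counted. No genotype was given, so an unexpressed gene, a missing gene copy and an allele whose reads did not align to the reference cannot be told apart for these steers.

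The contrast of stable and polymorphic loci was measured as the spread between steers, the SD of log2(normalized count + 1) after the mean of each group was taken off. It was 0.18 for B2M, 0.23 for BOLA-DRA, 0.42 for BOLA-DRB3, 2.18 for BOLA-DQB and 3.80 for BOLA-DQA. Over all 13265 genes tested the median was 0.25, with 0.11 at the 5th and 0.75 at the 95th percentile. B2M and BOLA-DRA thus stood at percentiles 29.9 and 46.6 and BOLA-DRB3 at 78.7. BOLA-DQA had the largest spread of all genes tested, and BOLA-DQB ranked 21 from the top.

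The polymorphic locus had the larger spread in 6 of 6 pairs with a stable locus, by an exact two-sided test that exchanged the centred values of both genes within steers (65536 exchanges, adjusted over the 6 pairs). BOLA-DRB3 exceeded BOLA-DRA by 0.19 (adjusted p = 0.0211) and B2M by 0.24 (adjusted p = 0.00623). BOLA-DQA exceeded BOLA-DRA by 3.56 and B2M by 3.62 (adjusted p = 0.000122 for both), and BOLA-DQB exceeded them by 1.95 (adjusted p = 0.000275) and 2.003 (adjusted p = 0.000122). The pair within the DR protein was the closest to the threshold. Without steer 4 the difference of BOLA-DRB3 and BOLA-DRA was 0.14 (exact test, adjusted p = 0.0575) and without steer 16 it was 0.14 (exact test, adjusted p = 0.0581).

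**Figure D3:**
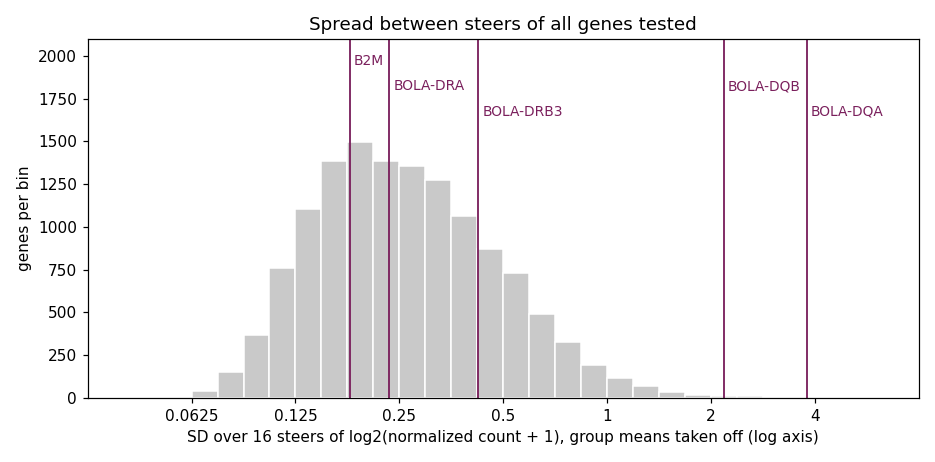
Histogram of the spread of the 13265 genes tested, as the SD over 16 steers of log2(normalized count + 1) with group means taken off, on a log axis, with the genes per bin on the other axis. Vertical lines mark the 5 MHC genes: B2M and BOLA-DRA lie near the peak at 0.18 and 0.23, BOLA-DRB3 on its right side at 0.42, and BOLA-DQB and BOLA-DQA beyond the bulk at 2.18 and 3.80.

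The spread of the DR beta chain was in part shared with its alpha chain. Over the 16 steers BOLA-DRA and BOLA-DRB3 rose and fell together, with Pearson r = 0.768 (permutation p = 0.00048, adjusted over 10 pairs 0.0048) and Spearman rho = 0.709 (adjusted permutation p = 0.0146). The value was 0.804 within high-RFI and 0.735 within low-RFI steers, and 0.678 without the 2 steers farthest from the median of BOLA-DRA. In the 12 steers above the gap in BOLA-DRA, without steers 2, 6, 14 and 16, it fell to 0.556. No test is given there, because those steers were set aside by BOLA-DRA itself, which narrows its range. Per length, BOLA-DRB3 stood at 0.405 (steer 8) to 0.780 (steer 4) of BOLA-DRA, with a median of 0.570.

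B2M showed no such relation with the DR chains over all steers. Its r was -0.0835 with BOLA-DRA (adjusted permutation p = 0.843, rho 0.103) and -0.262 with BOLA-DRB3 (adjusted permutation p = 0.570). The 4 steers below the gap in BOLA-DRA had B2M levels of 1450, 1459, 1564 and 1722 FPKM, all above the B2M median of 1446 FPKM. Steers 5, 7, 11 and 15 were above that median too, at 1510, 1505, 1664 and 1712 FPKM. Per length, B2M was 3.07 to 3.76 times BOLA-DRA in the 4 steers below the gap and 1.64 to 2.53 times in the other 12. Within those 12, r of B2M and BOLA-DRA was 0.670 (0.532 without the 2 farthest steers), given as a description with no test because the 4 steers were set aside for the values compared.

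**Figure D4:**
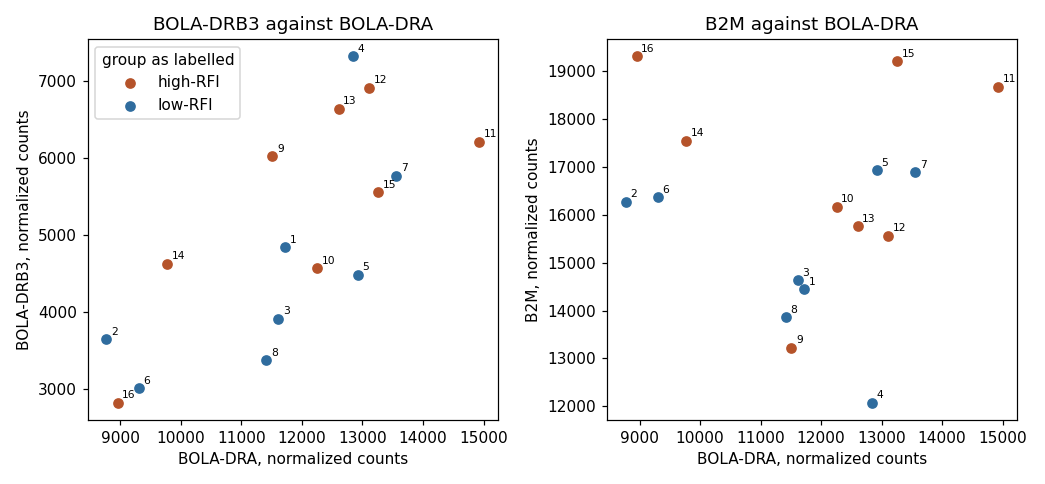
BOLA-DRB3 and B2M against BOLA-DRA, both axes in normalized counts, with 1 point per steer numbered as in the labels and coloured by group. BOLA-DRB3 climbs with BOLA-DRA (r = 0.768). In the B2M panel steers 2, 6, 14 and 16 lie apart at low BOLA-DRA, with B2M above its median, as it also is in some of the other 12.

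For the DQ genes the steers fall into separate sets, so no pooled r is given. Among the 12 steers with BOLA-DQA, r of its level was 0.784 with BOLA-DRB3 and 0.688 with BOLA-DRA. By rank the values were lower (rho 0.692 and 0.622). Without the 2 farthest steers r was 0.543 and 0.533. Among the 11 steers with BOLA-DQA and the low BOLA-DQB level, r of the 2 DQ chains was 0.807 (rho 0.836), and 0.834 without the 2 farthest. For B2M and BOLA-DQA in the 12, r was -0.156. Pairs of BOLA-DQB with BOLA-DRA, B2M and BOLA-DRB3 over its 14 low steers gave r of 0.223, 0.464 and 0.493. These sets were formed by the BOLA-DQA and BOLA-DQB counts after the values had been seen, so these are descriptions with no test.

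The gene most like each member over the 16 steers was looked up among the 13264 other genes tested, as a description with no test. For B2M it was ENSBTAG00000048782, with r = 0.976 against 0.873 for the next gene. It had nearly the same level, 1463 FPKM on average, and 0.941 to 1.08 times that of B2M in each steer (median 1.02), and whether reads of the one also fit the other was not tested. For BOLA-DRA it was ENSBTAG00000015228 (r = 0.918, and 0.871 without the 2 farthest steers), an RNA of 1760 FPKM on average at rank 28. For BOLA-DRB3 it was ENSBTAG00000038397 (r = 0.898). BOLA-DRB3 itself was the 33rd gene most like BOLA-DRA, and BOLA-DRA the 20th most like BOLA-DRB3. For BOLA-DQA it was ENSBTAG00000038128 (r = 0.801), with 0, 1 and 1 raw counts in steers 1, 3 and 8 but 614 in steer 14. Among the 12 steers with BOLA-DQA the r of the 2 genes was 0.627. For BOLA-DQB it was ENSBTAG00000049866 (r = 0.840), a likeness that came from steers 4 and 14, since r was 0.333 without them. The deposited files give no names for these 5 genes.

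Between the RFI groups, no member passed the test. With the quasi-likelihood test of edgeR and Benjamini-Hochberg adjustment over 13265 genes, 0 of 5 members had a false discovery rate (FDR) under 0.05, and the share of all genes called was 0%. At an unadjusted p under 0.05 the count was again 0 of 5, where 5.22% of all genes passed. In limma voom with sample quality weights 2 of 5, BOLA-DQA (FDR = 0.597) and BOLA-DRB3 (FDR = 0.647), passed the unadjusted threshold. There 876 of 13265 genes passed it. In DESeq2 BOLA-DQB passed it (FDR = 0.996), where 862 of 21016 genes did. That DESeq2 fit replaced outlier counts. Without replacement BOLA-DQB had a log2 fold change of -0.22 and no p. DESeq2 called 0 of 5 members, and 0.0333% of 21016 genes. The median log2 fold change of the 5 is that of B2M, 0.15, beside 0.00163 over all genes tested.

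B2M averaged 16934 ± 2133 normalized counts in high-RFI and 15185 ± 1724 in low-RFI steers (SD, n = 8 each), with 4 of 8 high-RFI steers above every low-RFI steer. Its log2 fold change of high over low was 0.15 with a 95% interval of -0.04 to 0.34 (edgeR FDR = 0.965, exact permutation p = 0.107). Without high-RFI steer 9 the difference on the log2(normalized count + 1) scale was 0.20 (exact permutation p = 0.0230, not adjusted), against 0.16 with it. Over all steers left out in turn it ran from 0.11 to 0.20 (exact permutation p = 0.0230 to 0.209). BOLA-DRA averaged 12049 ± 1938 and 11517 ± 1708 normalized counts, a log2 fold change of 0.06 with an interval of -0.17 to 0.30 (edgeR FDR = 0.999). The intervals of these stable loci leave out any change of 2-fold or more. They are intervals of the difference in bulk blood RNA after ribosomal and globin depletion, relative to the other genes counted in these steers.

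BOLA-DRB3 averaged 5425 ± 1353 normalized counts in high-RFI and 4549 ± 1427 in low-RFI steers, a log2 fold change of 0.25 (interval -0.16 to 0.66, edgeR FDR = 0.986, exact permutation p = 0.232). BOLA-DQA averaged 665 ± 399 and 373 ± 395, a log2 fold change of 0.84 with an interval of -1.22 to 2.90 (edgeR FDR = 0.999). On the log2(normalized count + 1) scale the difference was 2.69 (exact permutation p = 0.110). The group medians were 661 and 375 normalized counts, and 1 high-RFI against 3 low-RFI steers were without it. BOLA-DQB averaged 175 ± 390 and 204 ± 521 normalized counts, a log2 fold change of -0.15 with an interval of -2.84 to 2.53 (edgeR FDR = 0.999). Its means are set by steers 4 and 14: the medians were 37.1 in high-RFI and 17.2 in low-RFI steers, in the other direction. Without steer 4 the log2 fold change was 3.16, and without steer 14 it was -2.39, neither past the threshold. On the log2(normalized count + 1) scale the difference was 0.96 (exact permutation p = 0.408). Without steer 4, the shallowest library and the low-RFI steer with high BOLA-DQB, it was 1.78 (exact permutation p = 0.0129, not adjusted). Without steer 14, the high-RFI steer with high BOLA-DQB, it was 0.34 (exact permutation p = 0.814). The BOLA-DRB3 interval, like those of the stable loci, leaves out a change of 2-fold or more. The DQ intervals are wide and do not leave out a change of 2-fold or more in either direction.

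**Figure D5:**
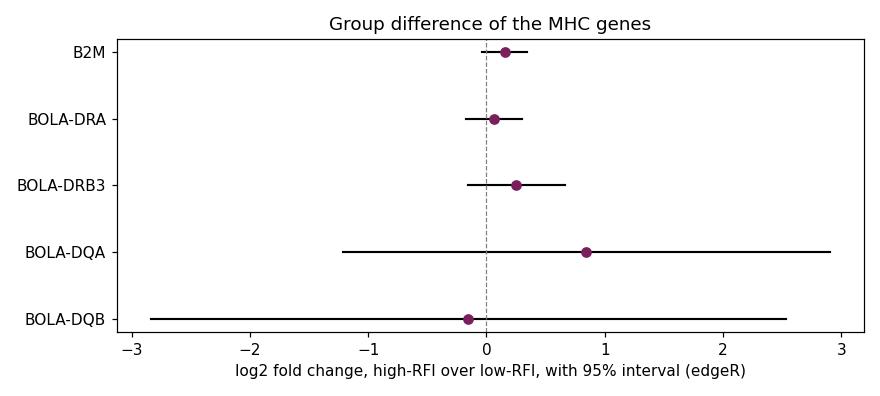
Log2 fold change of high-RFI over low-RFI for each MHC gene (points) with its 95% interval (lines) from edgeR, and a dashed line at 0. All 5 intervals cross 0, and they widen from B2M (-0.04 to 0.34) to BOLA-DQB (-2.84 to 2.53).

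Scaling each gene to BOLA-DRA in the same steer, the class II gene with the least variation in sequence, left no group difference past the threshold. The log2 ratio to BOLA-DRA was higher in high-RFI steers by 0.09 for B2M, 0.20 for BOLA-DRB3, 2.62 for BOLA-DQA and 0.90 for BOLA-DQB (exact permutation p = 0.563, 0.180, 0.111 and 0.433, adjusted over the 4 ratios 0.563, 0.360, 0.360 and 0.563). The spread of BOLA-DRB3 between steers was 0.29 as a ratio and 0.42 alone, while that of B2M was 0.32 as a ratio and 0.18 alone. For BOLA-DQA and BOLA-DQB the ratio changed little, 3.75 against 3.80 and 2.1998 against 2.18.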

How the data were processed

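Whole-blood RNA was measured in 16 steers, 8 per RFI group as labelled. Per the labels and the study's methods, reads were trimmed with Trimmomatic 0.39, aligned to ARS-UCD1.2 with HISAT2 2.2.1 and counted per gene. For the annotation, strand and multi-mapping settings, nothing is given in the sources used here. Raw counts were deposited by the authors, beside normalized counts (a signal per gene, the raw counts over 1 DESeq2 size factor per steer, 0.622 to 1.46) and FPKM, which are those normalized counts divided by gene length. Depth was 4.80 to 12.2 M counts per steer, and n = 8 per group sets the precision of the group tests.

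Raw counts were tested with edgeR 4.0.16 (TMM, filterByExpr, robust quasi-likelihood fit) in R 4.3.3, with Benjamini-Hochberg adjustment over all genes tested. Single values, ratios and spreads were tested with exact two-sided permutations on log2(normalized count + 1), and correlations with 100000 resamples. The scripts were tested on simulated data. Alternatives were DESeq2 1.42.0, limma 3.58.1, other normalizations, filters and pseudocounts, and leaving out each steer. The text names the 5 members and, for each, the gene with the highest r. The members, lists and tests were chosen with earlier results of these data known. The 9 lists of pathway genes and cell markers (81 entries) were not analysed here, since 0 of 37063 RefSeq entries carried an identifier of the files. No sequence was used.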

Additional observations from a re-analysis of the deposited data

Results flagged for a closer look

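In 18 groups of 8 steers, 1 for each member or ratio and RFI group, the gap of the highest or lowest steer to its neighbour was set against the whole range of the group. It passed Dixon's 95% critical value in 7. Chance would give about 1 in 20 only for normal values in independent groups. A ratio repeats the values of its member, so the 7 are not set against that share. Steer 16 was apart as the lowest high-RFI steer for BOLA-DRB3 (0.537). Steer 14 was apart from the other high-RFI steers as the lowest for BOLA-DQA (0.770) and the highest for BOLA-DQB (0.805), and also in their ratios to BOLA-DRA (0.821 and 0.834). Steer 4 was apart as the highest low-RFI steer for BOLA-DQB (0.608) and for its ratio to BOLA-DRA (0.625). The low-RFI steers 1, 3 and 8 without BOLA-DQA are 3 of 8 and so did not stand apart by this measure.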

How the results depend on the processing

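No member with an adjusted p passed an FDR of 0.05 in 9 other settings or with any of the 16 steers left out (BOLA-DQB had none in DESeq2 without replacement of outlier counts), and no ratio to BOLA-DRA differed between groups. The sign of the BOLA-DQB fold change depended on the fit: it was -0.15 in edgeR, 0.79 in DESeq2 (unadjusted p = 0.0259), 1.22 in limma voom with quality weights (there unadjusted p = 0.00847 for BOLA-DQA and 0.0189 for BOLA-DRB3), 0.59 on log2(FPKM + 1), 0.95 on log2(FPKM + 0.1), 0.96 on log2(normalized count + 1), -0.22 in DESeq2 without replacement of outlier counts (chosen after seeing the data), and -2.39 to 3.16 with 1 steer left out. The BOLA-DQA log2 fold change ran from 0.83 to 5.14 in the other settings and from 0.64 to 1.37 with 1 steer left out. With steers left out in edgeR, unadjusted p fell under 0.05 without steer 4 for BOLA-DQB (0.00839) and BOLA-DRB3 (0.0466) and without steer 9 for B2M (0.0319). Of all genes, 596 of 13356 passed that threshold without steer 4 and 781 of 13375 without steer 9. The r of BOLA-DRA and B2M was 0.103 as Spearman's rho, 0.670 in the 12 steers above the gap, and -0.252 to 0.107 with 1 steer left out. Of the 10 member pairs over all 16 steers, 1 was correlated by Pearson's r (1 to 1 with a steer left out) and 5 by Spearman's rho. Apart from BOLA-DRA with BOLA-DRB3, those found by rho pool the separate sets of a DQ gene. Pairs of a DQ gene within the larger sets of steers are not counted, since those sets were chosen after seeing the data. The number of members with a single-value group difference was 0, and 0 to 1 with a steer left out. The locus pairs of unequal spread numbered 6, and 5 to 6 with a steer left out. Of 505 checks of single values, 487 kept their direction and side of the threshold. No paired analysis was possible because the groups share no replicate number.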
